A study of Mus musculus with 6 samples.

Results

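The genes described here are 48 mouse genes that license replication origins, build and drive the replication fork, supply it with nucleotides, and regulate or follow S phase. They were measured in C2C12 myotubes, the fused muscle cells that form from a mouse myoblast line when serum is lowered. A gene was taken in when the platform annotation gave a probe set exactly 1 symbol and that symbol was the gene's. This found 44 of the 48 genes, with 620 of the 241576 probe sets, among 20416 genes in all. Orc1, Orc2, Orc6 and Cdc45 carry older symbols on this platform and were matched through RefSeq synonyms after the values had been seen. Counts out of the 44 genes leave them out, while the promoter shares and the role groups include them. All 48 genes passed the filter on low values.

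The insulin group was 3 cultures of differentiated C2C12 myotubes that had received 100 nM insulin for 48 h, which the labels describe as a way to bring about insulin resistance. The control group was 3 cultures of the same myotubes left untreated. Both groups grew in 10% fetal bovine serum, fused in 2% horse serum, were used on days 4 to 7 of differentiation and had new medium every 24 h. C2C12 is a single cell line, the labels term both sets of 3 samples biological replicates, and p-values here measure the spread between these 6 arrays alone. Each Affymetrix array was hybridised with RNA amplified from 25 ng, and its values are deposited RMA values on a scale taken as log2, running from 3.15 to 14.6. They are relative, come with no detection calls, and cannot rank the level of one gene against another. Array medians were 8.80 to 8.82 in the insulin group and 8.79 on each control array.

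Before a cell copies its DNA, the origin recognition complex with Cdc6 and Cdt1 loads the ring of Mcm2 to Mcm7 onto origins, a step called licensing that geminin (Gmnn) blocks once S phase has begun. Cdc45, the GINS complex and Mcm10 then turn the ring into an active helicase, behind which primase, the polymerases, the clamp Pcna and its loader build the new strands. Many of these genes are transcribed by E2F factors, which the retinoblastoma protein Rb1 and its relatives hold in check, and fused myotubes are textbook examples of cells that have left the cycle.

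The promoters of these genes are shown first, because E2F and CCAAT words there are sequence features that the choice of genes did not use. RefSeq windows of 300 bases, from 250 before to 50 after the annotated start in build GRCm38.p6, were at hand for 40 of the 48 genes. At least 1 of the E2F words TTTCCCGC, TTTGGCGC, TTTGCCGC and TTTCGCGC, on either strand, lay in the windows of 16 of the 40 (40%), against 704 of all 27025 genes with a window (2.605%). Among genes that rose with insulin, 13 of 29 had such a word (44.8%), and among those that did not pass the test 3 of 11 had one (27.3%), namely Orc1, Gins3 and E2f2. Of 46 other replication genes with a window, 28.3% had an E2F word. CCAAT lay in 25 of the 40 (62.5%), against 41.1% of all genes and 43.5% of the genes of the further lists. It lay in 55.2% of the genes that rose and in 81.8% of those that did not pass. TTTGAA, the core of the element called CHR, lay in 6 (15%), against 20.2% of all genes and 26.1% of the genes of the further lists. Median G and C content was 59.2% in these genes' windows and 52.7% in all 32851 windows, and its part in the shares was not tested. A match is a run of letters and not a shown binding site.

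The 16 genes with an E2F word each have 1 of their matches printed here in capitals, read 5′ to 3′ on the strand of the word, to show how the word and its flanks vary among them. The centre of the word is given in bases from the annotated start, negative before it, so that those with a positive centre lie in transcribed sequence.
Mcm3, chr1:20820278-20820301, plus strand, centre 23: tcccaagtTTTCCCGCcacggaag
Mcm5, chr8:75109352-75109375, minus strand, centre -145: ctggacgtTTTGGCGCgaaagttc
Mcm6, chr1:128359737-128359760, minus strand, centre -43: tggacgggTTTGGCGCgaagtagc
Mcm7, chr5:138171852-138171875, minus strand, centre 20: tgacgacgTTTCGCGCcaatttcg
Orc1, chr4:108579419-108579442, minus strand, centre -23: agaaaactTTTCGCGCcactaacc
Cdc6, chr11:98908005-98908028, minus strand, centre -134: ccaggcgaTTTCCCGCtctccacc
Cdt1, chr8:122568039-122568062, plus strand, centre 36: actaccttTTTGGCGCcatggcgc
Gins3, chr8:95633510-95633533, minus strand, centre -37: aaactcgcTTTCCCGCgccgcact
Pola1, chrX:93632278-93632301, plus strand, centre -134: ggagtgcaTTTGGCGCcctgtgat
Pold1, chr7:44548766-44548784, plus strand, centre 43: gctTTTCCCGCcacaagat
Pold3, chr7:100121470-100121493, minus strand, centre 21: cgaagctgTTTCCCGCcggcggga
Pole2, chr12:69228165-69228188, plus strand, centre 14: gttcgcgaTTTGGCGCcaccgccg
Rfc3, chr5:151651193-151651216, plus strand, centre 4: agtagagtTTTCCCGCgagcgcga
Lig1, chr7:13278844-13278867, minus strand, centre 30: cacacagaTTTCGCGCgcactttg
E2f2, chr4:136172305-136172323, plus strand, centre 43: gcatatagTTTGGCGCtaa
Uhrf1, chr17:56304120-56304143, plus strand, centre -181: gagtcgggTTTCGCGCgcccaggc

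Matches lay on both sides of the start. The words of Mcm7 centre at -161 and 20 and those of Mcm3 at 23 and 42. In Mcm5 and Mcm6 a pair of words overlaps on opposite strands, so that one run of letters counts as 2 matches.

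Longer stretches, the 190 bases before the start and outside the annotated gene, are given for 7 genes that differ in their response. Capitals mark E2F words and CCAAT boxes on either strand, where a CCAAT box on the other strand reads ATTGG. Mcm6 and Rfc3 rose and hold E2F words there, Gins3 holds one and did not pass the test, Mcm10 and Mcm3 rose with CCAAT boxes alone in this stretch, and Rrm1 and Pcna did not pass and hold no E2F word. Cdt1, Pold1, Pold3, Rfc4, Rfc5 and Ccne1, not printed, also rose, and the same stretch of each holds neither word. Whether these words and the response go together was not tested.
Mcm6, chr1:128359706-128359895, minus strand: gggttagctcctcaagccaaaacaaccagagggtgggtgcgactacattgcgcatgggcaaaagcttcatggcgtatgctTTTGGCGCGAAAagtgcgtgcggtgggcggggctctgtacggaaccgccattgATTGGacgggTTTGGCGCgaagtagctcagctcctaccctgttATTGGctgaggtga
Rfc3, chr5:151651209-151651398, minus strand: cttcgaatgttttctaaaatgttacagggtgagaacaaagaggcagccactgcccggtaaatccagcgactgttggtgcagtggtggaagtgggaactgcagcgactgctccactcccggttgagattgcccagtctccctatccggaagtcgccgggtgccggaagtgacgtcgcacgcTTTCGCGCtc
Gins3, chr8:95633369-95633558, plus strand: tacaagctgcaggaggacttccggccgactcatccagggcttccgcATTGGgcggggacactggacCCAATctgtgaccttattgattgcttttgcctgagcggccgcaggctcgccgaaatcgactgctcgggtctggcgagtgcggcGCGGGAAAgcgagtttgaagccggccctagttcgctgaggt
Mcm10, chr2:5012792-5012981, minus strand: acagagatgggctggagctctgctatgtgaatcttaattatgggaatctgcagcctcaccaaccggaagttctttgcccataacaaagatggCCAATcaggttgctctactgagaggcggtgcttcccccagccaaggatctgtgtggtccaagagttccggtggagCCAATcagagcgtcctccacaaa
Mcm3, chr1:20820313-20820502, minus strand: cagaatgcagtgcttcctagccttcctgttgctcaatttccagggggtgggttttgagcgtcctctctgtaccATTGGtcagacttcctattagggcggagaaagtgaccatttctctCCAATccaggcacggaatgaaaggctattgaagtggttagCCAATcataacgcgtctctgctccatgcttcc
Rrm1, chr7:102441505-102441694, plus strand: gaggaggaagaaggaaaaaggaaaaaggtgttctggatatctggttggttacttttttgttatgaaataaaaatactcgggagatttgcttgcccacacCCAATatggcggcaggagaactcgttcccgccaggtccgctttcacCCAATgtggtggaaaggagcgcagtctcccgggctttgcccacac
Pcna, chr2:132253181-132253370, minus strand: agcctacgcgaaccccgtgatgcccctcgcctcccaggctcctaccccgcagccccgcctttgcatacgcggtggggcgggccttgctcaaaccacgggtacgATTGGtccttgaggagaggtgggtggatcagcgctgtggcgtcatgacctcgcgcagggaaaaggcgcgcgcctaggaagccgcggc

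**Figure D1:**
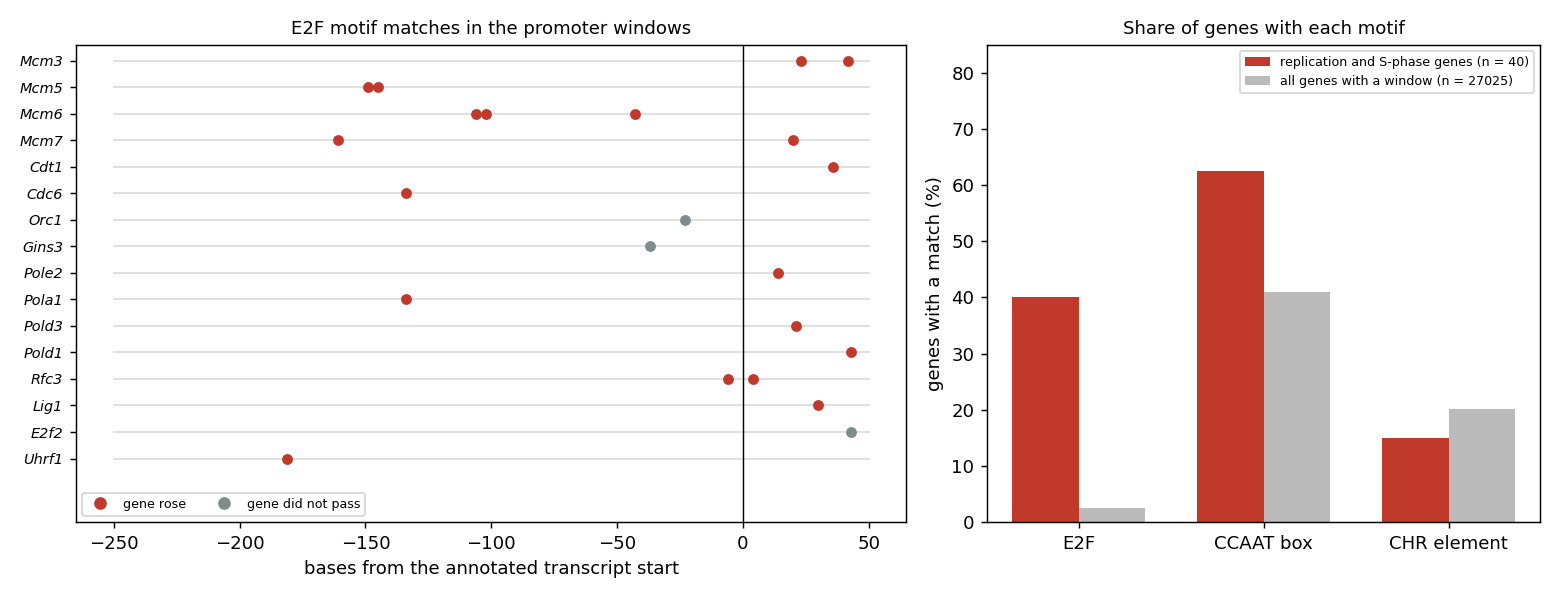
Left, position of each E2F word (x axis, bases from the annotated start) in the 16 genes that have one, coloured by whether the gene rose with insulin. Right, percent of genes with each motif among the 40 replication and S-phase genes with a window and among all 27025 genes, where 40% against 2.605% held an E2F word and 62.5% against 41.1% a CCAAT box.

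After 48 h of insulin, 33 of the 44 genes rose, 11 missed the threshold and 0 fell (limma, Benjamini-Hochberg adjusted p under 0.05 over 14291 genes). Over all tested genes 9.56% rose and 6.35% fell. With the 4 genes under older symbols added, 35 of 48 rose. At an unadjusted p under 0.05, 37 of the 44 genes were higher and 0 lower. The shares of all tested genes at that unadjusted threshold are not given here, and the shares above are for the adjusted one. The log2 change was above 0 in 43 of 44 genes, with a median of 0.47 (1.39-fold), while the median over all tested genes was -0.0028 and 49.4% of them lay above 0. In whole cultures, more cells in cycle and more RNA of these genes per cell cannot be told apart.

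Rising genes gained between 0.32 and 0.88 (1.25- to 1.84-fold), 12 of them by at least 1.5-fold, with the median of its probe sets as a gene's value, and every one of the 33 was higher on each insulin array than on each control array. Groups did not overlap in 39 of the 44 genes, against 35.7% of all tested genes in either direction. The median gene lay 0.44, 0.50 and 0.49 above the control mean on insulin arrays 1, 2 and 3, against -0.07, 0.03 and 0.04 on control arrays 1, 2 and 3. Control array 1 was the lowest control in 26 of the 44 genes, and insulin array 1 the lowest insulin array in 27. With 1 array left out, 22 to 33 of the 44 genes rose. Without insulin array 2, 22 of the 44 genes and 4.64% of all tested genes rose.

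**Figure D2:**
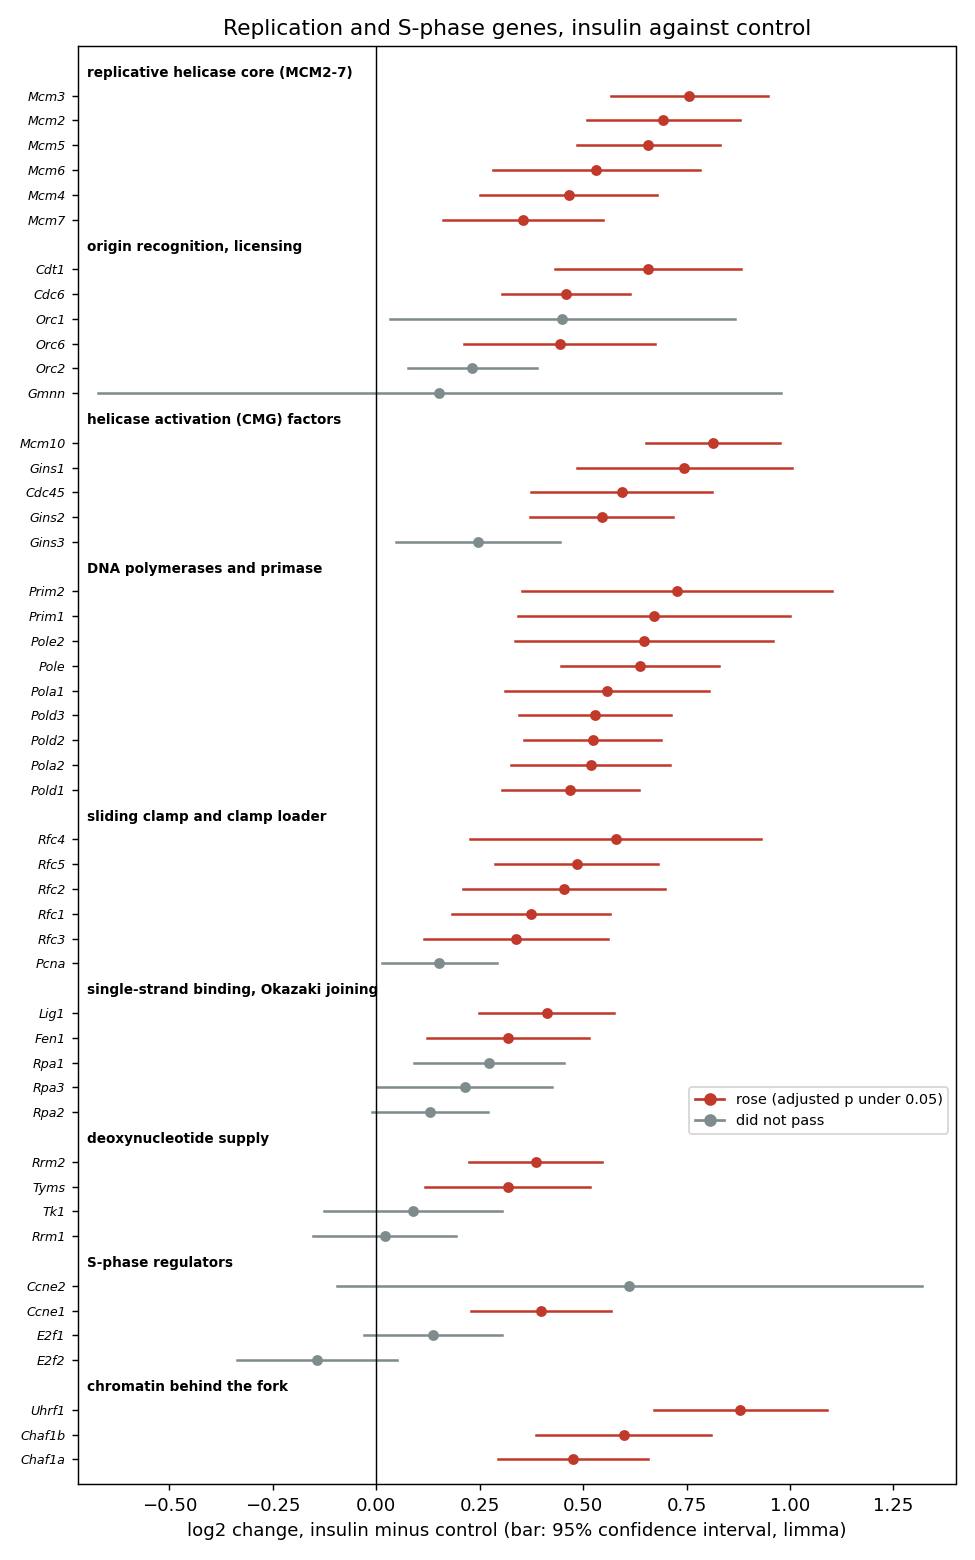
Log2 change, insulin minus control, of all 48 genes grouped by role (x axis), with 95% confidence intervals from limma. Each gene of the Mcm2 to Mcm7 ring, the polymerases and primase, and the chromatin group rose, while Rrm1 at 0.02 and E2f2 at -0.14 sit near or below 0.

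**Figure D3:**
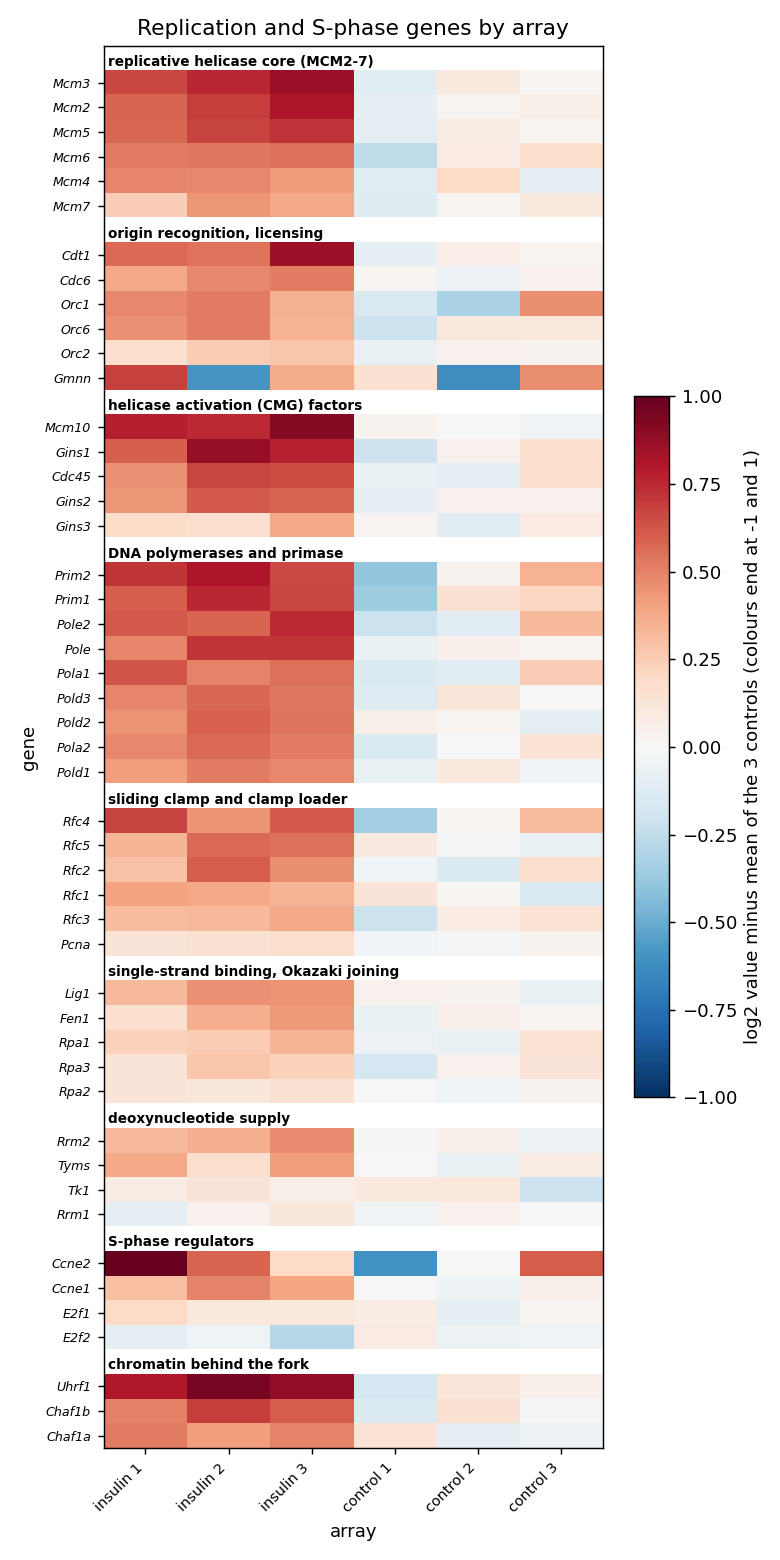
Log2 value of each gene (rows, by role) on each of the 6 arrays, as the difference from the mean of the 3 control arrays. Red is above and blue below that mean, the insulin arrays are red in nearly every row, and Gmnn and Ccne2 show arrays of one group far apart.

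All 6 genes of the Mcm2 to Mcm7 ring, the core of the replicative helicase, rose, with a median change of 0.60 and a range of 0.36 to 0.76. Mcm3 measured 11.23, 11.32 and 11.41 in the insulin cultures, against 10.45, 10.66 and 10.58 in the controls. Mcm2 stood at 11.04, 11.14 and 11.26 in the insulin cultures, against 10.37, 10.48 and 10.51 in the controls. Mcm5 read 11.47, 11.58 and 11.63 in the insulin cultures, against 10.80, 10.97 and 10.93 in the controls. The lowest insulin array lay 0.57 above the highest control array in Mcm3, 0.53 in Mcm2 and 0.50 in Mcm5, so these groups were well apart. The changes, as log2 value ± SE with 3 arrays in each group, were 0.76 ± 0.08, 1.69-fold, with an adjusted p of 0.00155, for Mcm3. Mcm2 gained 0.69 ± 0.08, 1.62-fold, with an adjusted p of 0.00189. Mcm5 gained 0.66 ± 0.08, 1.58-fold, with an adjusted p of 0.00184.

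The other subunits of the ring gained less. Mcm6 measured 11.29, 11.29 and 11.32 in the insulin cultures, against 10.52, 10.85 and 10.94 in the controls, so control array 1 was the low one. Mcm4 stood at 10.78, 10.77 and 10.71 in the insulin cultures, against 10.18, 10.49 and 10.21 in the controls, with control array 2 the closest to the insulin group. Mcm7 read 11.29, 11.49 and 11.43 in the insulin cultures, against 10.93, 11.07 and 11.14 in the controls, and its groups are 0.15 apart at the nearest. Mcm6 gained 0.53 ± 0.11, 1.45-fold, with an adjusted p of 0.0149. Mcm4 gained 0.46 ± 0.09, 1.38-fold, with an adjusted p of 0.0137. Mcm7 gained 0.36 ± 0.08, 1.28-fold, with an adjusted p of 0.0255. Mcm6 missed the threshold without any 1 insulin array (adjusted p 0.0533, 0.0553 and 0.0616 without arrays 1, 2 and 3), and Mcm4 without insulin array 1 (0.0551) or 2 (0.0559). Taken from its brightest probe set, Mcm6 changed by 0.34 (adjusted p 0.0608). Mcm7 missed it without insulin array 2 (adjusted p 0.0988) or 3 (0.0945) and without control array 1 (0.0514) or 2 (0.0701).

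Among the genes that recognise origins and control licensing, Cdt1 and Cdc6, the pair of loaders of the ring, rose, as did Orc6, and Gmnn, Orc1 and Orc2 did not pass. The median change of the 6 was 0.45. Cdt1 measured 9.57, 9.55 and 9.86 in the insulin cultures, against 8.91, 9.07 and 9.03 in the controls, and insulin array 3 was the highest. Cdc6 stood at 8.76, 8.86 and 8.89 in the insulin cultures, against 8.39, 8.32 and 8.42 in the controls, with both groups tight. Cdt1 gained 0.66 ± 0.10, 1.58-fold, with an adjusted p of 0.00458. Cdc6 gained 0.46 ± 0.07, 1.37-fold, with an adjusted p of 0.00433. Its change was 1.12 (adjusted p 0.004) from its brightest and 0.70 (0.00199) from its brighter probe sets. Orc6, a subunit of the origin recognition complex, gained 0.44 ± 0.10, 1.36-fold, with an adjusted p of 0.0219, and missed the threshold without insulin array 1 (adjusted p 0.0743), 2 (0.0848) or 3 (0.0513). Orc2, another subunit, changed by 0.23 ± 0.07, 1.17-fold, with an adjusted p of 0.0538, just short of the threshold, although its groups did not overlap. It passed under 5 alternatives, among them the mean of its probe sets at 0.46 (adjusted p 0.00971) and the brighter ones at 0.48 (0.0201).

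Orc1, the largest subunit, read 7.81, 7.85 and 7.68 in the insulin cultures, against 7.18, 7.01 and 7.80 in the controls, so control array 3 reached the insulin values. Its change was 0.45 ± 0.18, 1.37-fold, with an adjusted p of 0.14, and without control array 3 the adjusted p was 0.00421. With array weights it passed, at 0.71 (adjusted p 0.00405), while its brightest probe set changed by -0.02 (0.889). Array weights called 18.2% of all tested genes risen, against 9.56% in the main fit. Gmnn, the inhibitor of Cdt1, measured 10.72, 9.45 and 10.41 in the insulin cultures, against 10.20, 9.41 and 10.51 in the controls, with array 2 the lowest in either group and the groups overlapping. Its change of 0.15 ± 0.36 had a 95% interval of -0.67 to 0.98 and an adjusted p of 0.819. Its 8 probe sets differed from one another. The probe set furthest below 0 read 10.91, 7.79 and 10.21 in the insulin cultures, against 10.68, 8.59 and 10.73 in the controls. Another 4 probe sets had changes of 0.41 to 0.53. Taken from the brightest probe set alone, Gmnn changed by 0.49 at an adjusted p of 0.0319. Without insulin array 1 the sign of its change turned (-0.11), as it did without control array 2 (-0.16).

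Of the 5 factors that activate the helicase, 4 rose, with a median change of 0.59, and Gins3 did not pass. Mcm10, which helps the loaded ring become an active helicase, measured 9.71, 9.68 and 9.86 in the insulin cultures, against 8.97, 8.94 and 8.90 in the controls. Gins1, a subunit of the GINS complex, stood at 10.59, 10.87 and 10.76 in the insulin cultures, against 9.79, 10.04 and 10.17 in the controls. Gins3, another subunit, read 9.09, 9.07 and 9.29 in the insulin cultures, against 8.93, 8.79 and 8.98 in the controls. The groups were apart in all 3 genes, by 0.71 at the nearest in Mcm10 and by 0.08 in Gins3. Mcm10 gained 0.81 ± 0.07, 1.76-fold, with an adjusted p of 0.000599, and Gins1 gained 0.74 ± 0.11, 1.68-fold, with an adjusted p of 0.00495. Gins2 gained 0.54 ± 0.08, 1.46-fold, with an adjusted p of 0.0034, and Cdc45, the third partner of the active helicase, gained 0.59 ± 0.09, 1.51-fold, with an adjusted p of 0.00586. Gins3 changed by 0.25 ± 0.09 with an interval of 0.05 to 0.44 and did not pass (adjusted p 0.0931). With array weights Gins3 passed, at 0.33 (adjusted p 0.00659), and with the mean of its probe sets, at 0.39 (0.0076), while its brightest probe set changed by 0.07 (0.603). Among all tested genes, 18.2% rose with array weights and 13.7% with the mean of probe sets, against 9.56% in the main fit. Without each array in turn the 4 genes that rose still passed.

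All 9 polymerase and primase genes rose, with changes between 0.47 and 0.73. Prim2 and Prim1 are the subunits of primase, which lays down RNA primers. Prim2 measured 10.62, 10.72 and 10.57 in the insulin cultures, against 9.53, 9.95 and 10.25 in the controls, and Prim1 stood at 11.31, 11.47 and 11.38 in the insulin cultures, against 10.36, 10.87 and 10.92 in the controls. Control array 1 was the lowest in both, and the insulin arrays spread over 0.15 in Prim2 and 0.16 in Prim1, against 0.73 and 0.56 for the controls. Prim2 gained 0.73 ± 0.16, 1.66-fold, with an adjusted p of 0.0214. Prim1 gained 0.67 ± 0.14, 1.59-fold, with an adjusted p of 0.0175. Pold1, the catalytic subunit of polymerase delta, read 10.07, 10.17 and 10.14 in the insulin cultures, against 9.58, 9.76 and 9.63 in the controls. It had the smallest change of the 9, 0.47 ± 0.07, 1.38-fold, with an adjusted p of 0.00506, and taken from its brightest probe set alone the change was -0.08 (adjusted p 0.562).

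The subunits of the other polymerases were close together in size. Polymerase alpha, which extends the primer, gained 0.56 ± 0.11 in Pola1 and 0.52 ± 0.08 in Pola2. Polymerase epsilon, assigned to the leading strand, gained 0.64 ± 0.08 in Pole, its catalytic subunit, and 0.65 ± 0.14 in Pole2. Pold2 and Pold3, subunits of polymerase delta, gained 0.52 ± 0.07 and 0.53 ± 0.08. Adjusted p ran from 0.00274 for Pole to 0.0168 for Pole2 among these 6 genes. Without 1 insulin array the adjusted p of Prim1 was 0.0503 to 0.0682, that of Prim2 0.0666 to 0.0786 and that of Pole2 0.051 to 0.0733. Without insulin array 1 the adjusted p of Pola1 was 0.0512, and without control array 2 Prim2 was at 0.0588 and Pole2 at 0.0615. Pola2 at 0.22 (adjusted p 0.13) and Pole at -0.09 (0.761) also missed the threshold when the brightest probe set stood for the gene. Prim1 then changed by 0.44 (0.0201), and from brighter probe sets Pole2 gained 0.99 (0.00902).

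All 5 genes of the loader, Rfc1 to Rfc5, rose, while Pcna, the ring that tethers polymerases to DNA, did not pass the test. Rfc4 measured 10.99, 10.76 and 10.93 in the insulin cultures, against 9.98, 10.33 and 10.63 in the controls, and the controls spread over 0.65. Rfc5 stood at 10.76, 10.99 and 10.97 in the insulin cultures, against 10.52, 10.41 and 10.34 in the controls, with the groups apart. Pcna read 13.17, 13.19 and 13.21 in the insulin cultures, against 13.01, 13.03 and 13.08 in the controls, so that all insulin arrays were above all controls by 0.09 or more. Rfc4 gained 0.58 ± 0.15, 1.49-fold, with an adjusted p of 0.0377, and Rfc5 gained 0.48 ± 0.09, 1.4-fold, with an adjusted p of 0.00874. Pcna changed by 0.15 ± 0.06 (interval 0.01 to 0.29, adjusted p 0.135). Rfc1 gained 0.37 ± 0.08, Rfc2 0.45 ± 0.11 and Rfc3 0.34 ± 0.10, the last with an adjusted p of 0.0498. Pcna passed with array weights (adjusted p 0.024) and with an intensity trend in the variance (adjusted p 0.0169). Those settings called 18.2% and 11.1% of all tested genes risen, against 9.56% in the main fit. The difference between Pcna and the loader genes was not tested.

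Rfc5 alone of the loader genes passed without each array in turn. Without insulin array 1, 2 or 3 the adjusted p was 0.0734, 0.0735 and 0.0629 for Rfc1, 0.113, 0.125 and 0.153 for Rfc3, and 0.123, 0.0727 and 0.123 for Rfc4. Rfc2 had an adjusted p of 0.0897 and 0.0889 without insulin array 2 or 3. Without control array 1, Rfc2, Rfc3 and Rfc4 were at 0.0544, 0.0578 and 0.0501. Without control array 2, Rfc1, Rfc2, Rfc3 and Rfc4 were at 0.0613, 0.0852, 0.0849 and 0.0936. With the brightest probe set as the gene value, Rfc1, Rfc2 and Rfc3 were at 0.0887, 0.062 and 0.099, and without a filter Rfc3 and Rfc4 were at 0.0857 and 0.0657. Rfc3 also missed the threshold with quantile normalization repeated (adjusted p 0.0597) or arrays centred on their medians (0.0579), and the change of Rfc2 from its brightest probe set was 0.24. All 10 Pcna probe sets had changes above 0, from 0.09 to 0.39. Their identifiers form 2 separate runs, and whether one run measures a near-identical copy of the gene was not tested.

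Of the 5 genes that bind single strands and join Okazaki fragments, Lig1 and Fen1 rose and the 3 subunits of replication protein A did not pass. Lig1, the ligase that seals the fragments, measured 10.94, 11.08 and 11.07 in the insulin cultures, against 10.66, 10.66 and 10.54 in the controls. Fen1, the flap nuclease that trims them, stood at 10.44, 10.64 and 10.71 in the insulin cultures, against 10.21, 10.33 and 10.30 in the controls. Rpa2 read 10.29, 10.28 and 10.31 in the insulin cultures, against 10.17, 10.12 and 10.19 in the controls. Insulin arrays were above controls in all 3 genes, but in Rpa2 by 0.08 at the nearest. Lig1 gained 0.41 ± 0.07, 1.33-fold, with an adjusted p of 0.00792, and Fen1 gained 0.32 ± 0.09, 1.25-fold, with an adjusted p of 0.04. Rpa2 changed by 0.13 ± 0.06 (interval -0.01 to 0.27, adjusted p 0.194), Rpa1 by 0.27 ± 0.08 (adjusted p 0.0512) and Rpa3 by 0.21 ± 0.09 (adjusted p 0.163). Fen1 missed the threshold without insulin array 2 (adjusted p 0.13) or 3 (0.137) and without control array 1 (0.0865), 2 (0.0858) or 3 (0.0617), while Rpa1 passed without control array 3 (0.0203). Without a filter Fen1 was at an adjusted p of 0.0712, and with quantile normalization repeated at 0.0515. With the mean of its probe sets Rpa2 passed at 0.20 (adjusted p 0.0211) and Rpa3 changed by 0.35 (0.127). From brighter probe sets Rpa1 passed at 0.45 (0.015) and Rpa2 at 0.28 (0.0246).

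Of the 4 nucleotide supply genes, Rrm2 and Tyms rose. Ribonucleotide reductase makes deoxynucleotides, and its small subunit Rrm2, whose level in other cells follows S phase, rose, and its large subunit Rrm1 did not pass. Rrm2 measured 12.03, 12.07 and 12.17 in the insulin cultures, against 11.71, 11.76 and 11.64 in the controls. Rrm1 stood at 11.95, 12.10 and 12.17 in the insulin cultures, against 12.01, 12.10 and 12.05 in the controls, and its groups overlapped. Rrm2 gained 0.39 ± 0.07, 1.31-fold, with an adjusted p of 0.00966. Rrm1 changed by 0.02 ± 0.08 with an interval of -0.15 to 0.19 (adjusted p 0.888), and 17 of its 20 probe sets had changes above 0. Whether the 2 subunits differ in their change was not tested. The sign of the change in Rrm1 turned without insulin array 3 (-0.03).

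Tyms, which makes thymidylate, read 12.87, 12.65 and 12.91 in the insulin cultures, against 12.48, 12.42 and 12.57 in the controls, and rose by 0.32 ± 0.09, 1.25-fold, with an adjusted p of 0.0424. It missed the threshold without insulin array 1 (adjusted p 0.137) or 3 (0.145) and without control array 1 (0.0778) or 2 (0.137), and without a filter it stood at 0.075. Tk1, the thymidine kinase of cycling cells, measured 10.55, 10.61 and 10.54 in the insulin cultures, against 10.58, 10.58 and 10.27 in the controls, with overlapping groups and a change of 0.09 ± 0.09 (adjusted p 0.585). Its gene value is the median of 5 probe sets and fell on the one with the smallest change. One of the others read 10.23, 10.30 and 10.39 in the insulin cultures, against 9.54, 9.66 and 9.72 in the controls, and rose by 0.66 (adjusted p 0.0166 over probe sets). With the mean of its probe sets as the gene value, Tk1 changed by 0.38 (adjusted p 0.0115).

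Of the S-phase regulators, Ccne1 alone rose. Ccne1 and Ccne2 encode the E cyclins that partner Cdk2 at the start of S phase, and E2f1 and E2f2 are activator E2F factors. Ccne1 measured 10.28, 10.47 and 10.38 in the insulin cultures, against 9.98, 9.93 and 10.03 in the controls, with the groups apart. Ccne2 stood at 10.00, 9.52 and 9.14 in the insulin cultures, against 8.33, 8.94 and 9.55 in the controls, and insulin array 3 lay below control array 3. E2f1 read 9.88, 9.78 and 9.78 in the insulin cultures, against 9.75, 9.57 and 9.70 in the controls, with insulin array 2 only 0.03 above control array 1. Ccne1 gained 0.40 ± 0.07, 1.32-fold, with an adjusted p of 0.01. Ccne2 changed by 0.61 ± 0.31 (interval -0.10 to 1.32, adjusted p 0.229), and all 11 of its probe sets had changes above 0. E2f1 changed by 0.14 ± 0.07 (interval -0.03 to 0.30, adjusted p 0.251). E2f2, the single gene below 0, changed by -0.14 ± 0.08 (interval -0.34 to 0.05, adjusted p 0.303). From brighter probe sets the changes were 0.62 in Ccne1, 1.00 in Ccne2 and 0.30 in E2f1. With other ways of forming the gene value, E2f1 and Ccne2 passed, at 0.26 (adjusted p 0.00811) and 0.56 (adjusted p 0.0353) for the mean of probe sets.

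The 3 genes that rebuild and mark chromatin behind the fork all rose and passed without each array in turn. Uhrf1, which brings the maintenance methyltransferase to newly copied DNA, measured 11.50, 11.64 and 11.58 in the insulin cultures, against 10.52, 10.82 and 10.75 in the controls. Chaf1b stood at 10.09, 10.27 and 10.19 in the insulin cultures, against 9.45, 9.74 and 9.57 in the controls, and Chaf1a at 9.98, 9.88 and 9.95 in the insulin cultures, against 9.60, 9.38 and 9.41 in the controls. These last are subunits of CAF-1, which puts histones onto new DNA, and in all 3 genes the insulin arrays were above every control. Uhrf1 gained 0.88 ± 0.09, 1.84-fold, with an adjusted p of 0.00123. Chaf1b gained 0.60 ± 0.09, 1.51-fold, with an adjusted p of 0.0051, and Chaf1a gained 0.48 ± 0.08, 1.39-fold, with an adjusted p of 0.00686.

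Each gene is read by several probe sets, most of which moved as the gene value did. Of the 620 probe sets of the 44 genes, 584 had changes above 0 (94.2%), against 49.1% of all tested probe sets. Of the 586 that passed the filter, 223 rose and none fell (limma, adjusted over 169103 probe sets), where 3.43% of all tested probe sets rose and 1.44% fell. At an unadjusted p under 0.05, 447 were higher and 0 lower. The shares of all tested probe sets at that unadjusted threshold are not given here. Mcm2 had all 16 probe sets above 0 and 15 that rose, Mcm3 16 of 16 and 12, Mcm5 20 of 21 and 15, and Mcm10 20 of 21 and 13. Uhrf1 had 8 of 8 above 0, of which 7 rose. Over its 51 probe sets, Pole had 48 above 0 and 11 that rose. Some other genes that rose had few or no probe sets that passed by themselves. Mcm6 had 17 of 17 above 0 and 1 that rose, and Mcm7 had 9 of 9 and 0. Rfc3 had 9 of 9 above 0 and 1 that rose, Rfc2 10 of 11 and 0, and Fen1 4 of 4 and 0. E2f2, which did not pass, had 2 of 9 above 0. Probe sets of a gene share their RNA and are not replicates. The count of 223 went down to 8, 3 and 3 without insulin array 1, 2 or 3. Without control array 1, 2 or 3 it was 123, 38 and 141. Shares over all probe sets in these fits are not given here. A loss particular to these genes therefore cannot be told from a general one. Among all tested genes, 5.64%, 4.64% and 4.95% rose without insulin array 1, 2 or 3, against 9.56% with all 6 arrays.

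**Figure D4:**
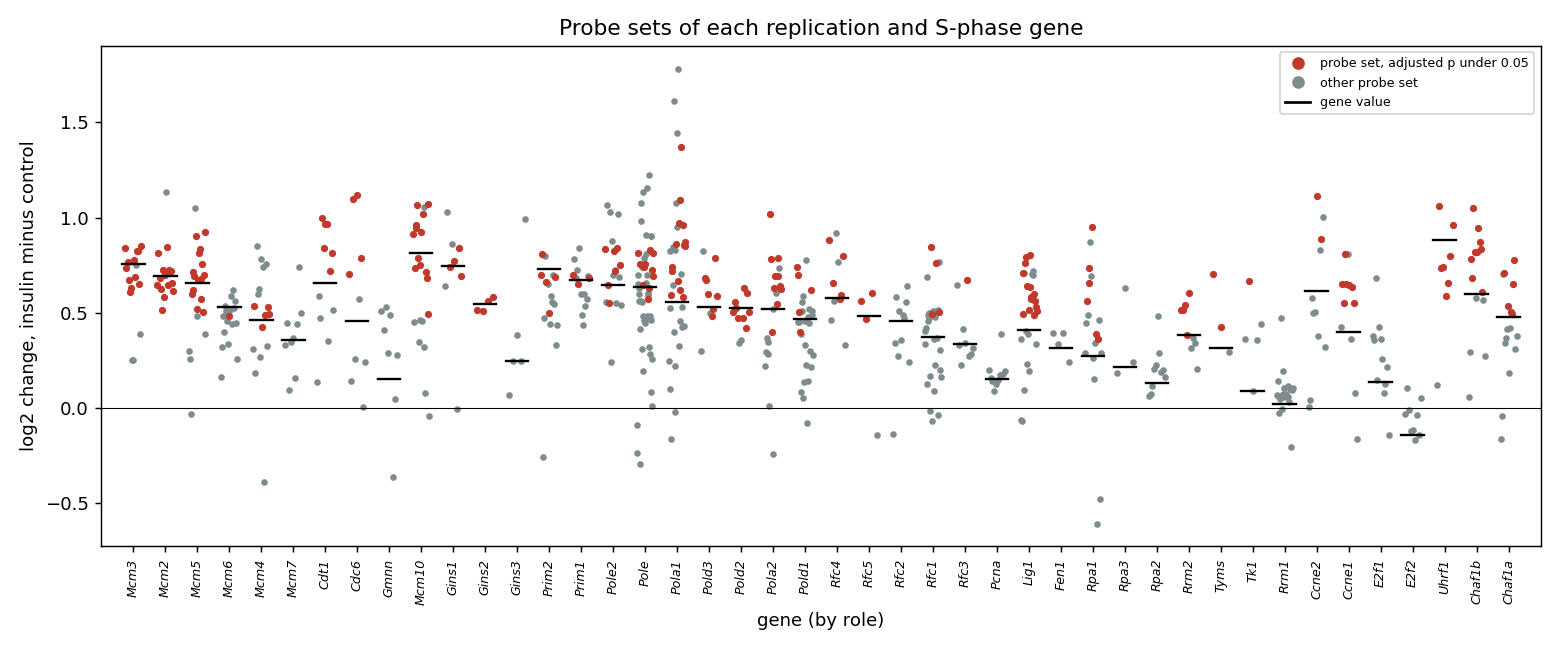
Log2 change, insulin minus control, of every probe set (points) of the 44 genes by role, with the gene value as a black bar and probe sets that passed the test in red. Of the 620 points 584 lie above 0, and those of Pola1 spread widest.

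The wider replication machinery and E2F network were read from 4 further lists, chosen with earlier results of these data known. Together, 25 of their 56 measured genes rose, 1 fell and 30 did not pass, with a median change of 0.25. The shares over all tested genes were 9.56% that rose and 6.35% that fell. Of 18 other replisome subunits, 8 rose and 10 did not pass (median 0.24). Of these, Orc3, Orc4, Orc5 and Mcmbp were matched through older symbols. Dscc1, part of an alternative clamp loader, measured 9.84, 9.80 and 9.84 in the insulin cultures, against 8.39, 8.93 and 9.16 in the controls. Orc5 stood at 8.87, 8.72 and 8.80 in the insulin cultures, against 7.88, 8.19 and 8.15 in the controls. Both had groups apart, and Dscc1 gained 1.00 ± 0.17, 2-fold, with an adjusted p of 0.00787, while Orc5 gained 0.72 ± 0.09, 1.65-fold, with an adjusted p of 0.00281. When brighter probe sets stood for the genes, their changes were 0.16 (adjusted p 0.497) and 0.27 (adjusted p 0.122). The count of 8 was 5 without insulin array 1 and 4 without insulin array 2, where 5.64% and 4.64% of all tested genes rose.

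Of 12 genes of origin firing and fork protection, 8 rose and 4 did not pass (median 0.41). Chek1, the checkpoint kinase that answers stalled forks, measured 9.16, 9.39 and 9.24 in the insulin cultures, against 8.21, 8.47 and 8.56 in the controls. Dbf4, which activates the origin-firing kinase Cdc7, stood at 11.00, 11.02 and 11.02 in the insulin cultures, against 10.09, 10.27 and 10.26 in the controls. Insulin arrays were far above controls in both. Chek1 gained 0.85 ± 0.10, 1.8-fold, with an adjusted p of 0.00224, and Dbf4 gained 0.81 ± 0.07, 1.75-fold, with an adjusted p of 0.000658. The count of 8 was 4 without insulin array 1 and 5 without insulin array 3, where 5.64% and 4.95% of all tested genes rose. All 12 had changes above 0.

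Of 13 other E2F and pocket protein genes, 3 rose, 1 fell and 9 did not pass, with a median of 0.05. Ccna2, the S-phase cyclin A, measured 11.76, 11.92 and 11.88 in the insulin cultures, against 11.30, 11.18 and 11.36 in the controls. E2f8, a repressor E2F, stood at 10.46, 10.39 and 10.37 in the insulin cultures, against 10.04, 10.00 and 9.99 in the controls. Every insulin array was above every control in both. Ccna2 gained 0.57 ± 0.08, 1.49-fold, with an adjusted p of 0.0031, and E2f8 gained 0.39 ± 0.06, 1.31-fold, with an adjusted p of 0.00585 (0.20 and adjusted p 0.111 from its brightest probe set). Rb1, the pocket protein that restrains E2F, measured 10.92, 10.91 and 10.91 in the insulin cultures, against 11.16, 11.32 and 11.24 in the controls, and was lower on every insulin array. It changed by -0.33 ± 0.07, 0.798-fold, with an adjusted p of 0.015. That call was lost without insulin array 1 (adjusted p 0.0533), 2 (0.061) or 3 (0.0587) and without control array 2 (0.0633). Of the relatives of Rb1, Rbl1 rose by 0.30 ± 0.07 (adjusted p 0.0255). Rbl2 changed by -0.08 ± 0.08 and did not pass (adjusted p 0.577). Of 13 further supply and chromatin genes, 6 rose and 7 did not pass (median 0.36). Hells, a chromatin remodeller that aids DNA methylation, measured 9.05, 9.07 and 8.85 in the insulin cultures, against 7.62, 7.81 and 8.27 in the controls, and gained 1.09 ± 0.16, 2.13-fold, with an adjusted p of 0.00383. Dctd, which makes the substrate of Tyms, read 10.09, 9.93 and 9.99 in the insulin cultures, against 8.81, 9.21 and 9.40 in the controls, with the controls more spread than the insulin arrays. It gained 0.86 ± 0.14, 1.82-fold, with an adjusted p of 0.00623, but changed by -0.03 (adjusted p 0.865) from its brightest probe set.

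**Figure D5:**
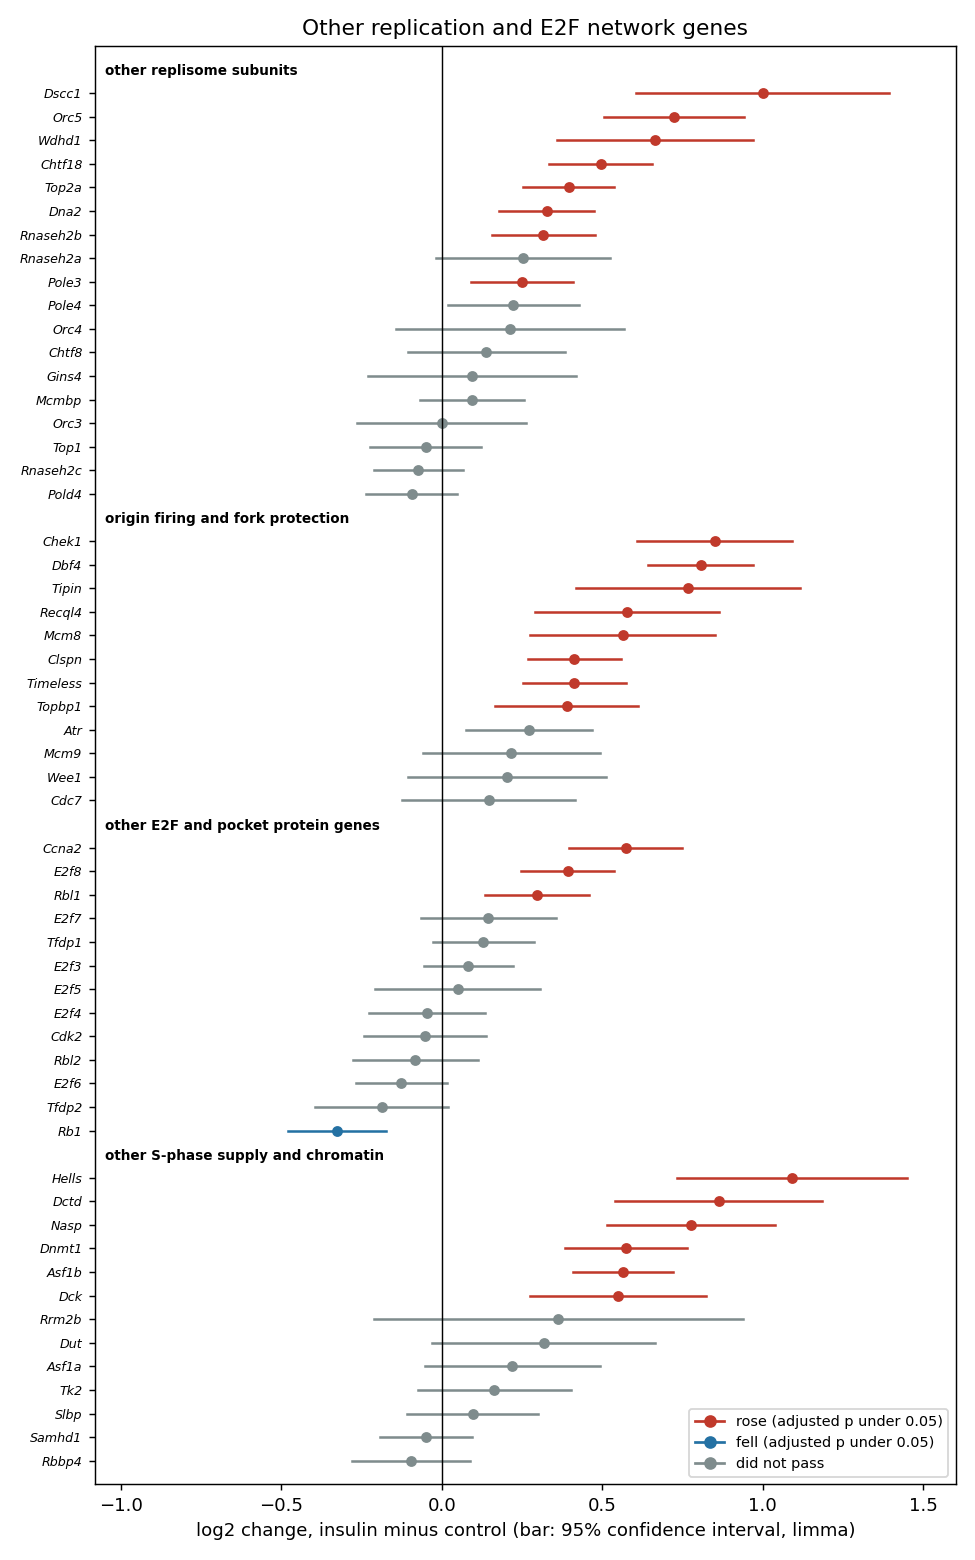
Log2 change, insulin minus control, of 56 other replication and E2F network genes in 4 lists (x axis), with 95% confidence intervals from limma. Hells at 1.09 and Dscc1 at 1.00 lie furthest to the right, and Rb1 at -0.33 is the one that fell.

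Markers of the cells in the cultures moved beside these genes. All 10 myotube markers were above the filter, of which 8 did not pass and 2 fell, the muscle factor Myog by 0.27 and creatine kinase Ckm by 0.30. The mean log2 level of the 10 was 12.79 to 12.85 on insulin arrays and 12.98 to 13.15 on control arrays. Neither call held without insulin array 1, 2 or 3 or control array 2, with adjusted p of 0.0632, 0.0774, 0.0998 and 0.0801 for Myog and 0.0861, 0.0731, 0.0549 and 0.091 for Ckm. Of 8 genes that mark undifferentiated myoblasts or cycling cells, 4 rose. Cyclin D1 (Ccnd1) gained 1.27, the proliferation marker Mki67 0.92, Cd34 0.55 and Myf5 0.29. One, Id3, an inhibitor of muscle factors, fell by 1.13. Myf5 missed the threshold without insulin array 1 (adjusted p 0.0761), 2 (0.0675) or 3 (0.0854). Pax7 (-0.03), Id1 (-0.17) and Id2 (0.11) did not pass. The mean level of the 8 was 9.88 to 9.97 on insulin arrays and 9.64 to 9.75 on control arrays. That mean includes Ccnd1 and Mki67, the largest gains of the list.

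Of 5 fibroblast markers 1 fell, Dcn by 0.57, and the mean level was 9.31 to 9.44 on insulin arrays and 9.57 to 9.68 on control arrays. Mean levels overlapped between groups for adipocyte markers (6.48 to 6.68 on insulin arrays, 6.46 to 6.81 on control arrays), endothelial markers (6.78 to 6.82 and 6.63 to 6.91), leukocyte markers (7.44 to 7.48 and 7.40 to 7.51) and bone markers (7.53 to 7.63 and 7.38 to 7.58). In these 4 lists 9 of 19 measured markers were above the filter and none passed the test (limma, with 2 at an unadjusted p under 0.05). RMA values have no 0, so no marker can be called absent. The part of the myoblast markers in the changes was not tested.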

How the data were processed

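The authors deposited 1 RMA value per probe set and array, per the submitters' processing notes (version not stated). RMA corrects background, normalizes quantiles across arrays and summarises probes, so values are relative and shifts shared by most probe sets are removed. The deposited values were taken to be log2, a base inferred from their range. The sources used here do not give an array build, scan date or batch. Of 241576 probe sets, 212097 had exactly 1 symbol in the platform annotation, 4475 several and 25004 none. Of those with several, 10 named a gene described here and were left out.

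A gene's value was the median of its probe sets. Genes with a mean at or above the 30th percentile (7.05) were tested with limma 3.58.1 in R 4.3.3 (lmFit, eBayes, two-sided, no covariates, Benjamini-Hochberg over 14291 genes), and single probe sets likewise (filter 7.36, 169103 tested). "Rose" and "fell" mean an adjusted p under 0.05. The script was tested on simulated data. An exact permutation test of 3 against 3 arrays cannot go below p = 0.1, so none is given. The number of arrays limits the precision, the SE of the 48 genes running from 0.06 to 0.36.

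Members, role classes, further lists and tests were chosen with earlier results of these data known. All 48 genes may be named. Values on every array are given for the 2 largest and the smallest absolute change in each of 9 role classes, for Mcm2 to Mcm7 and for Pcna (30 genes), and from each further list for the 2 largest changes and any call against the rest. Values on every array of Orc1 and Tk1, single probe sets of Gmnn and Tk1, and the marker genes were chosen after their values were seen. Atrip and Bglap had no probe set matched by symbol. Tried as alternatives were a replicate block, other scaling, filters, variance settings, array weights, other ways to form the gene value and leaving out each array. Motifs were searched with Python 3.11.15 in RefSeq windows (GRCm38.p6). Protein sequences were not used here.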

Additional observations from a re-analysis of the deposited data

How the results depend on the processing

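The median change of the 44 genes was 0.43 to 0.54 under 16 alternatives, with 0.54 when the brighter probe sets formed the gene value. The count that rose was 22 to 40, where 4.64% to 18.2% of all tested genes rose, and no gene of the 44 fell in any of them. Of the 33 rising genes, 17 passed under all 16, 23 under all that kept 6 arrays and 20 without each array in turn. Of the 11 others, 9 passed under at least 1 alternative, and Rrm1 and E2f2 under none. Single probe sets that rose numbered 223, against 5 with the replicate block, 83 without a filter, 398 with array weights (1 fell) and 3 to 141 with 1 array left out. The shares over all probe sets in these settings are not given here. Deviations of same-numbered arrays correlated at 0.02, 0.19 and -0.0004, and those of differently numbered arrays at -0.10 to 0.07. Not every array correlated best with its own number. With 3 arrays a group, these values cannot settle whether the numbers pair the cultures. With the replicate block 34 of 44 genes rose, and 1209 of all tested genes rose and 761 fell. Other replisome genes that rose numbered 5 with the brightest probe set, 5 with brighter probe sets and 4 to 7 with 1 array left out, and origin firing genes 4 to 9. Among all tested genes, 6.42% rose with the brightest probe set, 10.6% with brighter probe sets and 4.64% to 10.4% with 1 array left out. Other E2F and pocket genes that rose numbered 1 with the brightest probe set, and those that fell 0 there and 0 to 1 with 1 array left out. Among the 48 genes, signs turned for Rrm1 with centred arrays (-0.00065), array weights (-0.016) and with 1 array left out (-0.028 to 0.080), for Pold1 (-0.080), Pole (-0.090) and Orc1 (-0.023) with the brightest probe set, for Tk1 without control array 3 (-0.014) and for Gmnn with 1 array left out (-0.16 to 0.52). Over all tested genes, 2608 rose and 2399 fell with array weights, 1482 fell with the mean of probe sets, and with 1 array left out the counts were 663 to 1480 and 382 to 969. The causes were not tested. With 3 arrays a group, the smallest change that passed among the 44 genes was 0.32.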
